A study of Mus musculus with 16 samples.

Results

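The 35 genes described here encode the machinery that brings secretory and membrane proteins into the endoplasmic reticulum (ER) and starts their maturation there. They were chosen by name and are 35 of the 22392 gene symbols in the count table. They comprise 6 genes of the signal recognition particle (SRP), 1 gene of its receptor, 3 genes of the Sec61 channel, the 2 genes Sec62 and Sec63, 2 TRAM genes, 4 genes of the translocon-associated protein (TRAP) complex, 5 genes of the signal peptidase, 9 genes of the oligosaccharyltransferase (OST) and 3 genes for ribosome-binding proteins of the ER membrane, Rrbp1, Ktn1 and Ckap4. For each gene, the transcript with the largest total over all 16 libraries was used.

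RNA-seq and Ribo-seq, the sequencing of mRNA fragments that ribosomes protect (footprints), were done on the same lysates of the mouse hepatoma line Hepa1-6. The lines were WT cells and 3 clones with the genotype Eef1d exon 5 KO (clones #1, #2 and #3, here KO1, KO2 and KO3), all in the same medium, with 2 replicates of each line in each assay. Each clone was grown from a single cell after 2 guides had cut around exon 5 and carries an in-frame deletion on both alleles. KO1 and KO2 were made with the same guide plasmids and KO3 with another pair. A change in 1 clone cannot be told apart from a difference between single-cell clones. Exon 5 is the part of the elongation factor subunit EEF1D that the study tied to the ER membrane proteins KTN1 and RRBP1, and the comparison asks how RNA, footprints and translation efficiency of ER entry genes stood in cells without it. The study speaks of biological replicates, but the labels do not say that they were separate cultures, so p-values measure the spread between these libraries, which may be technical.

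In co-translational entry, SRP binds the signal sequence of a nascent chain and docks the ribosome at its receptor on the ER. The chain then passes through the Sec61 channel, helped by TRAM, TRAP, Sec62 and Sec63, while the signal peptidase removes the signal sequence and OST attaches N-glycans. Hepatocytes secrete plasma proteins in bulk by this route, and RRBP1, KTN1 and CKAP4 are coiled-coil proteins of the rough ER.

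The total over 1 transcript per gene was 10493030 to 12946819 counts in RNA-seq libraries and 1138943 to 4886753 in Ribo-seq libraries, with replicate 2 of KO1 the smallest. The 35 genes took 0.460% to 0.526% of RNA-seq counts and 0.611% to 0.658% of footprints. Counts are per transcript, so the Eef1d transcripts with and without exon 5 share most of their reads. The count with exon 5 was 116% of the count without it in both WT RNA-seq libraries and 89.8% to 92.6% in the 6 libraries of the clones, and in Ribo-seq it was 113% to 114% against 96.0% to 98.9%. Of 8 hepatocyte markers, 5 had at least 10 counts in every RNA-seq library (Alb, Afp, Apob, Trf and Fgb). Their summed level over the 8 genes was 2260 and 2434 CPM (counts scaled to the size of the library) in WT cells, with KO1 at 900.0 and 910, KO2 at 1736 and 1872, and KO3 at 3397 and 3558. Of 4 fibroblast markers, Dcn and Pdgfra had at least 10 counts in every RNA-seq library, and the list summed to 713 to 1097 CPM. The 4 leukocyte markers summed to 21.6 and 21.7 CPM in KO1 and to 5.13 to 10.7 CPM in the other lines, with Adgre1 at 0, and the 4 endothelial markers to at most 2.28 CPM, with Tek at 0. The part of these marker levels in the changes given below was not tested.

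In WT cells the ER entry genes were abundant and had more footprints for their RNA than most genes. Levels in WT cells are CPM per 1000 counted codons, so that genes of different length can be compared. The median RNA level of the 35 genes was 407, against 90.3 over the 9634 genes with at least 10 counts in each WT library, and 33 of them lay above that median. The median footprint level was 479 against 71.8, with 34 above. Translation efficiency (TE), the log2 ratio of the footprint level to the RNA level, had a median of 0.26 against -0.15, with 29 above. The TE of a member differed between the 2 WT replicates by 0.12 in the median and by 0.34 at most, and the members' median was 0.32 without WT replicate 1.

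**Figure D1:**
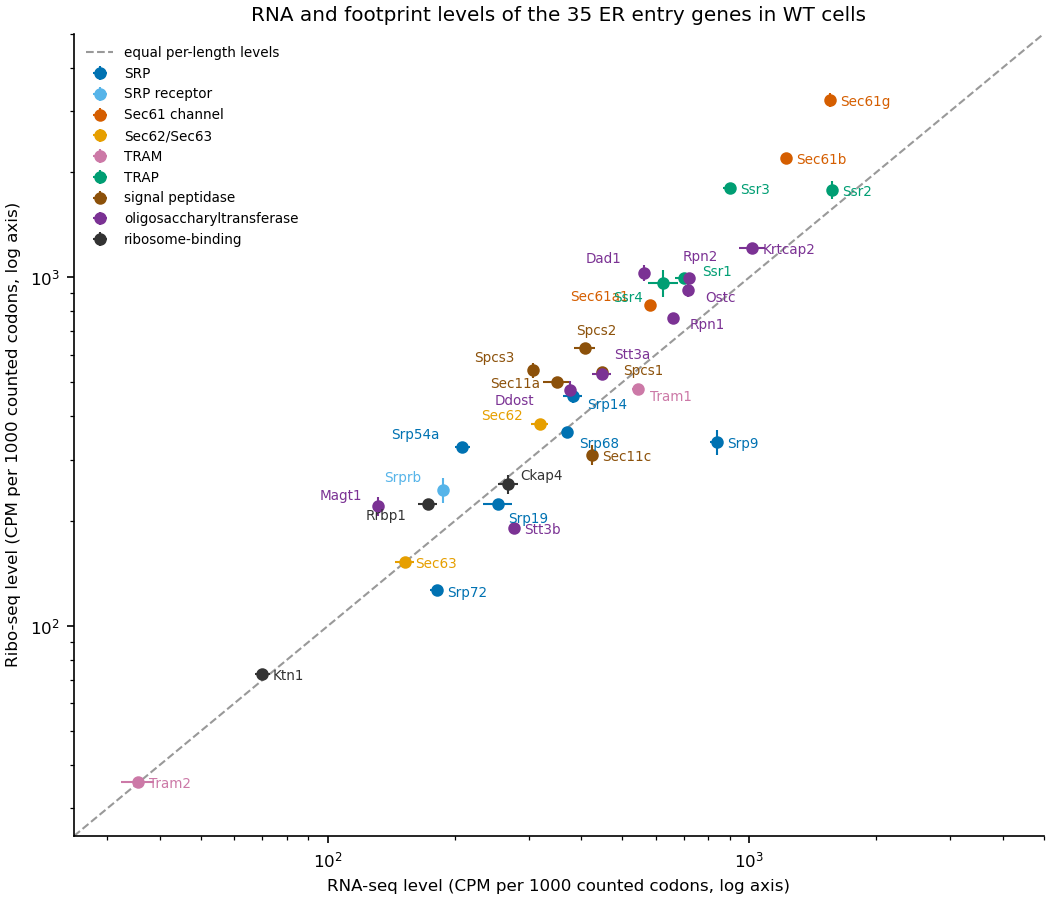
RNA-seq level (x axis) and Ribo-seq level (y axis) of the 35 ER entry genes in WT Hepa1-6 cells, in CPM per 1000 counted codons on log axes, coloured by complex, as the mean of 2 replicates with bars that span both. Sec61g and Ssr3 have the highest footprint levels for their RNA (TE 1.05 and 1.01), and Srp9 has the lowest (TE -1.31).

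Of the 35 members, Sec61g, Sec61b, Ssr3 and Ssr2 had the highest footprint levels. Sec61g and Sec61b, the small subunits of the channel, had RNA levels of 1556 and 1223 and footprint levels of 3233 and 2207, and Sec61a1, whose product forms the pore, had 580.3 and 832. TE was 1.05 for Sec61g, 0.85 for Sec61b and 0.52 for Sec61a1. The 3 subunits thus spanned 2.68-fold in RNA and 3.89-fold in footprints. With the shortest annotated coding sequences of Sec61b and Sec61g, of 87 and 59 counted codons, footprint levels were 2726 and 3427, also above Sec61a1. Their RNA levels were then 1674 and 1666, and their TE, from the mean levels, 0.70 and 1.04. Of the TRAP genes, Ssr2 had the highest RNA level of all members with the transcripts used, 1572, and a TE of 0.18. The shortest Sec61b and Sec61g sequences lay above that RNA level. Ssr3 had an RNA level of 898 and a TE of 1.01. Ssr1 and Ssr4 had RNA levels of 699 and 626 and TE of 0.51 and 0.62. TRAP footprint levels, 965 to 1807, spanned 1.87-fold and RNA levels 2.51-fold.

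RNA levels of the 6 SRP genes were 181 to 836, and their footprint levels were 127 to 456. Srp9 and Srp14 encode the dimer that slows elongation when SRP binds. Srp9 had an RNA level of 836 and a footprint level of 338, and Srp14 had 382 and 456. The TE of Srp9, -1.48 and -1.14 in the replicates, was the lowest of the members, and that of Srp14 was 0.26. Srp54a, for the GTPase that binds signal sequences, had an RNA level of 209 and a TE of 0.65. This TE is uncertain, since Srp54b has the same coding sequence and the same footprint count. Over all libraries Srp54b had 17119 RNA-seq counts against 9311 for Srp54a. RNA levels of Srp68, Srp19 and Srp72, further SRP proteins, were 369, 253 and 181, and their TE was -0.03, -0.17 and -0.52. Srprb, the membrane-anchored subunit of the SRP receptor, had an RNA level of 187 and a TE of 0.38. Sec62 and Sec63, which act with the channel in post-translational entry, had RNA levels of 318 and 152 and TE of 0.25 and 0.01. Tram1, a membrane protein next to the channel, had an RNA level of 543 and its paralog Tram2 35.5, the lowest member, with TE of -0.18 and 0.01.

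Of the enzymes, the 5 signal peptidase genes lay within 1.46-fold in RNA level (307 for Spcs3, 349.7 for Sec11a, 407 for Spcs2, 423 for Sec11c and 448 for Spcs1) and within 2.03-fold in footprint level. Sec11a and Sec11c encode alternative catalytic subunits. Sec11c had the higher RNA level but the lower footprint level, 309.7 against 503, with a TE of -0.45 against 0.53. The accessory subunits Spcs1, Spcs2 and Spcs3 had TE of 0.25, 0.63 and 0.82. The catalytic subunits of OST also differed. Stt3a, for the enzyme that acts at the channel during synthesis, had an RNA level of 447 and a TE of 0.24, and Stt3b, for the enzyme that modifies sites left over, had 276 and -0.53. In both WT replicates TE was below 0 for Sec11c and Stt3b and above 0 for Sec11a and Stt3a. The shared subunits Rpn2, Rpn1, Dad1 and Ddost had RNA levels of 719, 658, 562 and 375 and TE of 0.47, 0.21, 0.87 and 0.34. Krtcap2 and Ostc, subunits of the STT3A complex, had RNA levels of 1018 and 717 and TE of 0.26 and 0.36, and Magt1, a subunit of the STT3B complex, had 131 and 0.74. In the ribosome-binding group, Ckap4, Rrbp1 and Ktn1 had RNA levels of 268, 173 and 69.9 and TE of -0.07, 0.38 and 0.06.

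In the clones, changes were moderate and differed from clone to clone. They are given as log2 of clone over WT with the standard error (SE), from edgeR's quasi-likelihood test over all genes with Benjamini-Hochberg adjustment. A change with an adjusted p under 0.05 is called. All 35 members passed the filter on low counts in every comparison. In bulk lysates, less RNA in each cell and fewer cells that hold it cannot be told apart. In KO1, RNA of 3 members rose and that of 15 fell, 18 in all, where 46.7% of 11515 genes were called, 22.1% higher and 24.6% lower. In KO2, 5 rose and 5 fell, where 20.4% of genes were called, 11.6% higher and 8.84% lower. In KO3, 9 rose and 7 fell, where 45.4% were called, 23.1% higher and 22.3% lower. The median RNA change of the members, -0.11 for KO1, -0.05 for KO2 and 0.02 for KO3, stood against 0.00 over all genes in each. The median size of a change, sign aside, was 0.16, 0.16 and 0.14, against 0.26, 0.16 and 0.24 over all genes. The counts depend on single libraries, with 9 members called in KO1 and 6 in KO2 without WT replicate 1, and 6 in KO2 without WT replicate 2. Under every alternative tried, 8 of 18 calls held for KO1, 3 of 10 for KO2 and 9 of 16 for KO3.

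**Figure D2:**
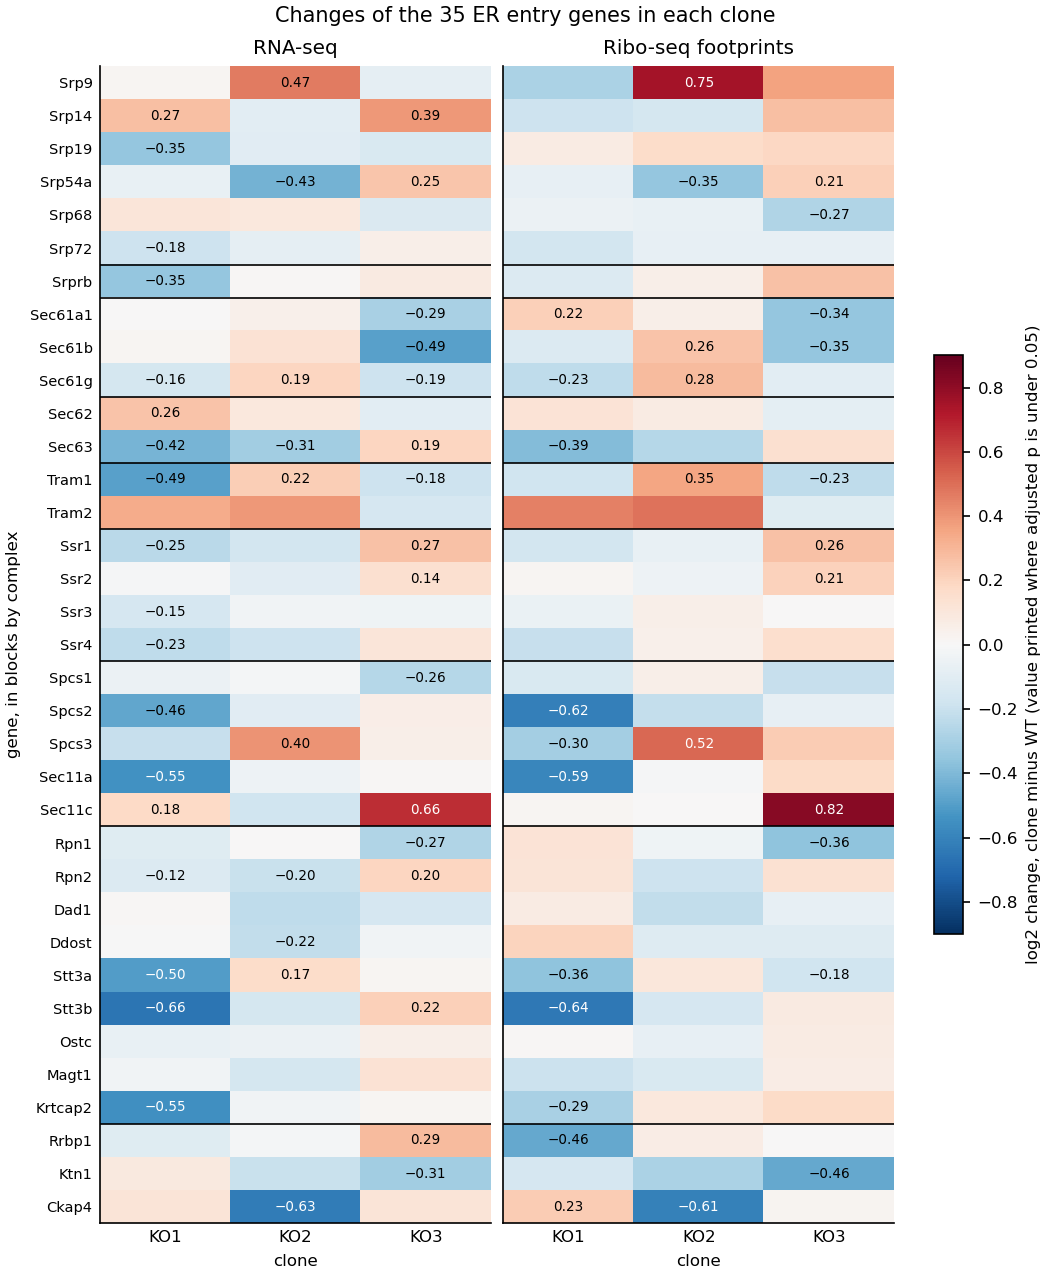
Log2 change of RNA-seq (left) and Ribo-seq footprints (right) of the 35 ER entry genes, in blocks by complex (rows), in each clone against WT (columns), from blue (lower) to red (higher), with the value printed where the adjusted p is under 0.05. RNA of Sec61g, Sec63, Tram1 and Rpn2 has a called value in each clone, of both signs.

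The comparisons of the 3 clones share the WT libraries, so a call in several clones is not independent evidence. The test that the clones differ was called for 31 of 35 members in RNA (74.0% of all genes) and for 28 in footprints (59.5%). Over the mean of the clones, 6 were called in RNA (18.9% of genes). Sec11c was higher (7.18%), at 0.22 ± 0.06, and Stt3b, Krtcap2, Sec63, Tram1 and Rpn1 were lower (11.7%), between -0.20 and -0.13. Each of these 6 had changes of both signs among the clones. Sec11c was at 0.18, -0.18 and 0.66 in KO1, KO2 and KO3, and Tram1 at -0.49, 0.22 and -0.18. The SE holds the spread within lines, not that between clones. No member was called for the mean without WT replicate 1, and 3 were called without KO3 replicate 2.

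In footprints of KO1, 2 members were called higher and 9 lower, 11 in all (26.9% of genes, with 11.7% higher and 15.2% lower). In KO2, 5 were higher and 2 lower (11.7%, with 6.74% and 4.96%), and in KO3, 4 were higher and 7 lower (30.6%, with 14.9% and 15.7%). Over the mean of the clones, 4 were called (9.25%), with Sec11c higher (2.98%) and Stt3b, Spcs2 and Ktn1 lower (6.27%). Sec11c was at 0.02, 0.004 and 0.82 in KO1, KO2 and KO3, and Stt3b at -0.64, -0.15 and 0.08. Spcs2 was at -0.62, -0.21 and -0.08, called in KO1 alone, and Ktn1 at -0.15, -0.28 and -0.46, called in KO3 alone. The Ktn1 change in KO1 was positive without KO1 replicate 1 (0.105) and with libraries thinned to equal depth (0.0223). Of the members called in RNA, 15 of 18 (KO1), 10 of 10 (KO2) and 16 of 16 (KO3) had a footprint change of the same sign, where the share over all genes called in RNA and tested in footprints was 93.4%, 96.2% and 94.9%. Both assays come from 1 lysate per replicate. The KO1 count was 7 without WT replicate 1 and 5 without KO1 replicate 1. For the mean of the clones it was 0 without either WT replicate and 2 without KO1 replicate 1, KO2 replicate 2 or KO3 replicate 1.

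In SRP, Srp9 rose and Srp54a fell in KO2, and Srp14 rose in KO3. Srp9 RNA was 66.7 and 62.2 CPM in WT cells, with KO1 at 65.4 and 65.0, KO2 at 90.5 and 87.1, and KO3 at 62.7 and 58.0. Both KO2 libraries lay above the other 6 (0.47 ± 0.08, adjusted p = 0.000153). Srp9 footprints were 23.9 and 28.1 CPM in WT cells and 40.5 and 45.8 in KO2 (0.75 ± 0.15, adjusted p = 0.00096), a change that DESeq2 did not call. They rest on few counts, from 17 in replicate 2 of KO1 to 162 in replicate 1 of KO2. Srp14, its partner, was not called in KO2 (-0.10 ± 0.10). Srp14 RNA was 40.6 and 36.5 CPM in WT cells, 45.4 and 47.5 in KO1, and 52.0 and 48.0 in KO3. It rose in KO3 (0.39 ± 0.09, adjusted p = 0.000394). In KO1 it was at 0.27 ± 0.10 (adjusted p = 0.0175), a call lost without WT replicate 2 (0.19) and without KO1 replicate 2 (0.24). Its footprints were not called in any clone.

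Srp54a RNA was 108 and 99.0 CPM in WT cells, with KO1 at 95.2 and 103, KO2 at 83.6 and 69.6, and KO3 at 125 and 118. It was lowest in KO2 (-0.43 ± 0.09, adjusted p = 0.000812) and highest in KO3 (0.25 ± 0.07, adjusted p = 0.00217), where the call was lost without WT replicate 2 (0.19). Footprints were at -0.35 ± 0.08 in KO2 (adjusted p = 0.00375), which DESeq2 did not call. The counting of Srp54a is uncertain. Its coding sequence differs from that of Srp54b in 0 of 1515 bases and from that of Srp54c in 6. Footprint counts of Srp54a and Srp54b were equal in 8 of 8 Ribo-seq libraries (4128 in sum for each), while RNA counts were 9311 and 17119 and equal in 0 of 8. Footprints can therefore be assigned to neither copy, and the TE of Srp54a depends on the copy whose RNA it is divided by. Of the other SRP genes, Srp19 (-0.35 ± 0.11) and Srp72 (-0.18 ± 0.07) were called lower in KO1, both lost without WT replicate 1, and Srp68 was not called in RNA. Srprb RNA was 48.9 and 48.5 CPM in WT cells and 39.9 and 36.7 in KO1 (-0.35 ± 0.09, adjusted p = 0.00175).

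In the Sec61 channel, RNA of all 3 subunits was called lower in KO3. Sec61b RNA was 162 and 156 CPM in WT cells, with KO1 at 168 and 154, KO2 at 174 and 172, and KO3 at 117 and 108 (KO3 -0.49 ± 0.07, adjusted p = 1.01e-09). Its footprints were 286 and 287 CPM in WT cells, with KO1 at 269 and 257, KO2 at 345 and 337, and KO3 at 222 and 230.0 (KO3 -0.35 ± 0.07, adjusted p = 8.85e-05). KO3 lay below every other line in both assays. The KO2 footprints of Sec61b (0.26 ± 0.07, adjusted p = 0.00922) lost their call without KO2 replicate 1 or either WT replicate. Sec61a1 RNA was 277 and 265 CPM in WT cells and 216 and 223 in KO3 (-0.29 ± 0.06, adjusted p = 7.74e-06). Its footprints were 387 and 390.1 CPM in WT cells, with KO1 at 465 and 435, KO2 at 406 and 395, and KO3 at 310.2 and 303. They fell in KO3 (-0.34 ± 0.06, adjusted p = 4.08e-05), and in KO1 they were at 0.22 ± 0.07 (adjusted p = 0.0156), a call lost without KO1 replicate 1 or either WT replicate. Sec61g RNA was 145 and 138 CPM in WT cells, with KO1 at 125 and 129.7, KO2 at 166 and 156, and KO3 at 128 and 119. Its changes, -0.16, 0.19 and -0.19 with adjusted p of 0.0401, 0.0394 and 0.0159, each lost their call without WT replicate 1 among others.

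Among the helpers of the channel, Tram1 and Sec63 fell in KO1. Tram1 RNA was 204 and 192 CPM in WT cells, with KO1 at 139.5 and 143, KO2 at 244 and 217, and KO3 at 182 and 165. It was lowest in KO1 (-0.49 ± 0.06, adjusted p = 9.26e-10) and highest in KO2, the clone made with the same guides. The KO2 change (0.22 ± 0.06, adjusted p = 0.0156) lost its call without KO2 replicate 1 (0.13) or WT replicate 2 (0.18). Tram1 footprints were 172 and 178 CPM in WT cells, 159.6 and 144 in KO1, and 229 and 213 in KO2. They rose in KO2 (0.35 ± 0.08, adjusted p = 0.00173), though not by DESeq2, and were not called in KO1 (-0.18 ± 0.09, adjusted p = 0.12). Sec63 RNA was 120.1 and 109 CPM in WT cells, with KO1 at 79.4 and 92.0, KO2 at 92.2 and 91.4, and KO3 at 132 and 127. It fell in KO1 (-0.42 ± 0.07, adjusted p = 3.67e-06), and the KO2 change (-0.31 ± 0.07, adjusted p = 0.00372) was lost without WT replicate 1 (-0.24). Sec62 RNA went the other way in KO1, from 118 and 129.7 CPM to 149 and 148 (0.26 ± 0.06, adjusted p = 0.000746), a call lost without WT replicate 1 (0.19). In TRAP, Ssr1 RNA was 202 and 185 CPM in WT cells and 234 and 228 in KO3 (0.27 ± 0.06, adjusted p = 9.92e-05). Ssr1, Ssr3 and Ssr4 were called lower in KO1, between -0.25 and -0.15, and each of these calls was lost without WT replicate 1.

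In the signal peptidase, Sec11a and Spcs2 fell in KO1 and Sec11c rose in KO3. Sec11a RNA was 63.8 and 55.2 CPM in WT cells, with KO1 at 40.1 and 41.3, KO2 at 60.0 and 54.7, and KO3 at 62.5 and 56.6 (KO1 -0.55 ± 0.09, adjusted p = 1.33e-06). Its footprints were 86.5 and 84.4 CPM in WT cells and 57.1 and 57.9 in KO1 (-0.59 ± 0.11, adjusted p = 4.52e-05). Spcs2 RNA was 93.6 and 83.2 CPM in WT cells and 63.6 and 64.6 in KO1 (-0.46 ± 0.08, adjusted p = 1.34e-06). Spcs2 footprints were 137 and 136 CPM in WT cells and 92.7 and 80.9 in KO1 (-0.62 ± 0.10, adjusted p = 1.92e-06). For both genes KO1 lay below every other library in both assays.

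Sec11c RNA was 79.0 and 75.9 CPM in WT cells, with KO1 at 86.4 and 89.0, KO2 at 73.0 and 63.2, and KO3 at 125 and 119. Its footprints were 60.4 and 52.9 CPM in WT cells, with KO1 at 61.6 and 48.6, KO2 at 58.0 and 55.9, and KO3 at 101 and 102. KO3 lay above every other library in both assays (0.66 ± 0.07 in RNA, adjusted p = 4.06e-13, and 0.82 ± 0.10 in footprints, adjusted p = 1.69e-08). In KO1, Sec11c RNA was at 0.18 ± 0.07 (adjusted p = 0.0421), a call lost without any 1 of the 4 libraries (0.14 to 0.20). The ratio of Sec11c to Sec11a in RNA CPM per counted codon was 1.15 and 1.28 in WT cells. KO1 stood at 2.00 and 2.00, KO2 at 1.13 and 1.07, and KO3 at 1.86 and 1.95. KO1 and KO3 thus had a similar ratio, KO1 with low Sec11a and KO3 with high Sec11c. In footprints the ratio was 0.65 and 0.58, 1.00 and 0.78, 0.62 and 0.63, and 0.92 and 1.05. Spcs3 rose in KO2 footprints, from 97.2 and 88.1 CPM to 127 and 139 (0.52 ± 0.09, adjusted p = 0.000205). Its RNA, 53.7 and 51.2 CPM in WT cells and 77.5 and 60.8 in KO2 (0.40 ± 0.10, adjusted p = 0.00549), lost its call without KO2 replicate 1 (0.22).

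**Figure D3:**
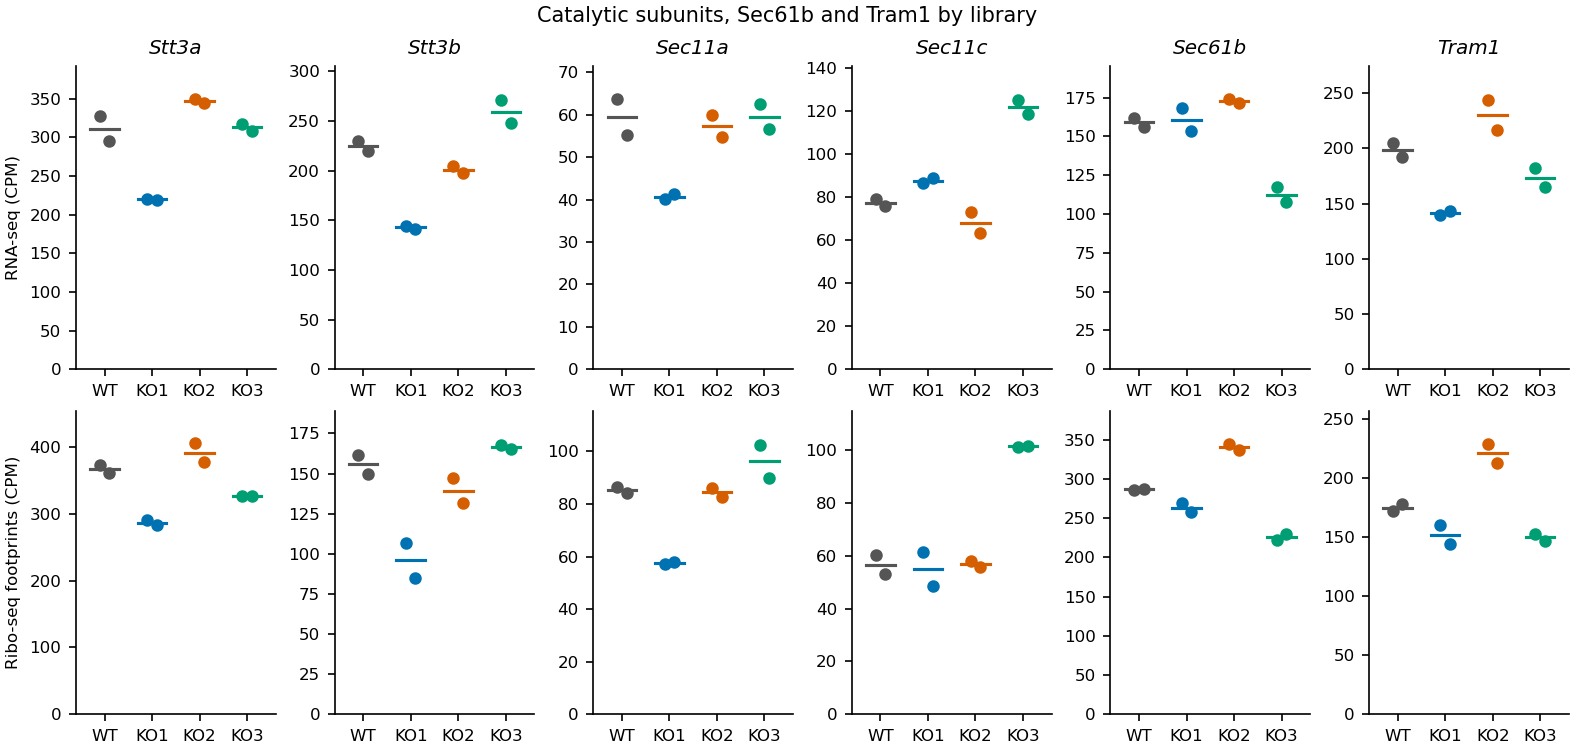
RNA-seq and Ribo-seq levels in CPM (y axes) of the OST catalytic subunits Stt3a and Stt3b, the signal peptidase catalytic subunits Sec11a and Sec11c, the channel subunit Sec61b and Tram1, by line (x axis), with a point for each of 2 replicates and a line at their mean. RNA of Stt3a, Stt3b and Sec11a is lowest in KO1, Sec11c is highest in KO3 at 125 and 119 CPM of RNA, and Sec61b is lowest in KO3.

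In OST, both catalytic subunits and Krtcap2 fell in KO1. Stt3b RNA was 229.6 and 219.5 CPM in WT cells, with KO1 at 145 and 141, KO2 at 204 and 197, and KO3 at 271 and 248. It fell in KO1 (-0.66 ± 0.06, adjusted p = 5.67e-14) and was at 0.22 ± 0.06 in KO3 (adjusted p = 0.000963), a call lost without WT replicate 2 (0.19). Stt3b footprints were 162 and 149.7 CPM in WT cells and 107 and 85.2 in KO1 (-0.64 ± 0.10, adjusted p = 5.7e-07). Stt3a RNA was 327 and 295 CPM in WT cells, with KO1 at 220.2 and 219, KO2 at 349.7 and 344, and KO3 at 317 and 309 (KO1 -0.50 ± 0.05, adjusted p = 3.06e-11). Stt3a footprints were 374 and 362 CPM in WT cells and 291 and 284 in KO1 (-0.36 ± 0.07, adjusted p = 9.84e-05). For both genes KO1 lay below every other library in both assays. The ratio of Stt3b to Stt3a in RNA CPM per counted codon was 0.60 and 0.64 in WT cells. KO1 stood at 0.56 and 0.55, KO2 at 0.50 and 0.49, and KO3 at 0.73 and 0.69. For footprints the same ratio was 0.37 and 0.35, 0.31 and 0.26, 0.31 and 0.30, and 0.44 and 0.43. In both assays KO3 lay above WT cells and KO1 and KO2 below them.

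RNA of the ribophorins Rpn1 and Rpn2, large shared subunits of OST, moved apart in KO3. Rpn1 RNA was 400.3 and 388 CPM in WT cells and 317 and 332 in KO3 (-0.27 ± 0.05, adjusted p = 7.09e-06), with footprints of 471 and 443 CPM in WT cells and 357 and 358 in KO3 (-0.36 ± 0.06, adjusted p = 1.23e-05). Rpn2 RNA was 442 and 453 CPM in WT cells, with KO1 at 432 and 389, KO2 at 386 and 389, and KO3 at 499.9 and 517. It rose in KO3 (0.20 ± 0.05, adjusted p = 0.000521), and its calls in KO1 (-0.12 ± 0.05) and KO2 (-0.20 ± 0.05) were lost without either WT replicate. Rpn2 footprints were not called in KO3 (0.14 ± 0.06, adjusted p = 0.0721). Of Dad1, Ddost, Ostc and Magt1, Ddost in KO2 alone was called in RNA (-0.22 ± 0.06, adjusted p = 0.0172), and that call was lost without KO2 replicate 2 or either WT replicate.

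Krtcap2 RNA was 138 and 120.3 CPM in WT cells, with KO1 at 95.1 and 81.2, KO2 at 132 and 121, and KO3 at 133 and 127. KO1 lay below every other library (-0.55 ± 0.07, adjusted p = 1.04e-08). Its footprints in KO1 were at -0.29 ± 0.09 (adjusted p = 0.0123), a call lost without WT replicate 1 (-0.24) and without KO1 replicate 1 (-0.21). Krtcap2 (chromosome 3, 89245966 to 89249906, plus strand, GRCm38) was also the member whose promoter held a motif of the ER stress response. Motifs were searched on both strands of the RefSeq promoter windows of GRCm38.p6, from 250 bases before to 50 bases after each start, which were at hand for 27 of the 35 members and 32851 promoters in all. ERSE-II (ATTGGNCCACG) was in 1 of the 27 and in 0.0365% of all promoters. The ER stress element ERSE (CCAAT, then 9 bases, then CCACG) was in 0 of the 27 and in 0.119% of all, and the core of the unfolded protein response element (TGACGTG) was in 0 and in 2.01%. ERSE and ERSE-II share the letters CCACG. The match is shown with its surroundings, at chr3:89246481-89246509 on the plus strand, with the motif in capitals. The motif starts 17 bases after the RefSeq start.
Krtcap2: gggacacggATTGGACCACGgacggggcg

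In the ribosome-binding group, each gene had its lowest level in another clone. Ckap4, whose product shapes ER sheets (chromosome 10, 84526305 to 84534062, minus strand), had RNA of 160.2 and 143 CPM in WT cells, with KO1 at 170.0 and 158, KO2 at 101 and 93.7, and KO3 at 161 and 166. It fell in KO2 (-0.63 ± 0.07, adjusted p = 9.76e-07) and was not called in KO1 (0.11 ± 0.06) or KO3 (0.12 ± 0.06). Ckap4 footprints were 153 and 136 CPM in WT cells, with KO1 at 177 and 159, KO2 at 99.7 and 88.3, and KO3 at 153 and 143 (KO2 -0.61 ± 0.09, adjusted p = 1.99e-05). The KO1 footprints, at 0.23 ± 0.09 (adjusted p = 0.0465), lost their call without WT replicate 1 (0.33), WT replicate 2 (0.16) or KO1 replicate 1 (0.13). Ktn1, for kinectin (chromosome 14, 47648448 to 47739894, plus strand), had RNA of 88.4 and 95.9 CPM in WT cells, with KO1 at 93.6 and 103, KO2 at 78.8 and 80.6, and KO3 at 73.6 and 73.9. It fell in KO3 (-0.31 ± 0.08, adjusted p = 0.000394) and was not called in KO1 (0.09 ± 0.07) or KO2 (-0.20 ± 0.08, adjusted p = 0.066). Ktn1 footprints were 94.1 and 98.5 CPM in WT cells, with KO1 at 81.5 and 103, KO2 at 80.0 and 76.3, and KO3 at 71.7 and 68.4 (KO3 -0.46 ± 0.10, adjusted p = 0.000298). KO2 and KO3 lay below WT cells in both assays, and KO1 overlapped them. Over the mean of the clones Ktn1 footprints were at -0.29 ± 0.08 (adjusted p = 0.0203), a call lost without KO1 replicate 1 or either WT replicate.

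Rrbp1, for the ribosome receptor p180 (chromosome 2, 143947395 to 144011263, minus strand), had RNA of 265 and 238 CPM in WT cells, with KO1 at 245 and 221, KO2 at 241 and 254, and KO3 at 290.5 and 319. It rose in KO3 (0.29 ± 0.06, adjusted p = 1.49e-05) and was not called in KO1 (-0.11 ± 0.06, adjusted p = 0.108) or KO2 (-0.02 ± 0.06). In KO1 it was called without WT replicate 2 (-0.19) or KO1 replicate 1 (-0.19). Rrbp1 footprints were 329 and 324 CPM in WT cells, with KO1 at 255 and 204, KO2 at 367 and 311, and KO3 at 350.2 and 307. They fell in KO1 (-0.46 ± 0.08, adjusted p = 7.75e-06), where both libraries lay below the other 6, and were not called in KO2 (0.07 ± 0.07) or KO3 (0.01 ± 0.07). The KO1 call held without each library in turn, at -0.68 to -0.37.

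**Figure D4:**
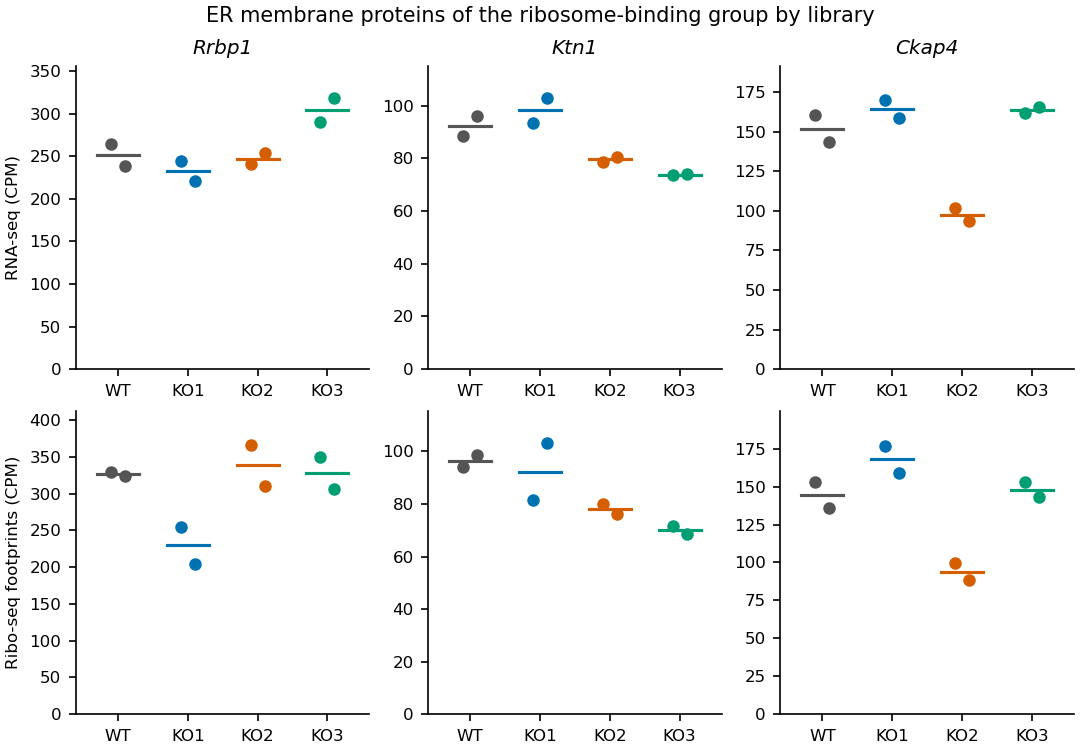
RNA-seq and Ribo-seq levels in CPM (y axes) of Rrbp1, Ktn1 and Ckap4 by line (x axis), with a point for each of 2 replicates and a line at their mean. Rrbp1 footprints are lowest in KO1, Ktn1 RNA and footprints are lowest in KO3, and Ckap4 RNA and footprints are lowest in KO2.

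The repeats of Rrbp1 are shown because its footprint counts per codon were higher in the part that holds them. The protein carries a run of near-identical repeats of 10 residues on its cytosolic side, and p180 is known for binding ribosomes and mRNA. The long transcript has 1455 counted codons, and a short one shares the first 699 codons, so counts on the short transcript give the first part and the difference gives the second part. Of all words of 30 bases, 20.2% in the first part and 0% in the second occurred more than once, with up to 9 copies, between codons 202 and 560. The 13 consecutive units of 30 bases below are codons 413 to 542, in exon 2 of 24, at chr2:143988620-143989009 on the minus strand (GRCm38, GENCODE). Capitals mark the bases that differ from the most frequent unit, which occurs 6 times, 5 of them in a row.
Unit 1: gaAggACcccagaaccaaggcaagaaggga
Unit 2: gaAgCAgcTcaAaaAcaGgAcaaAaaAATa
Unit 3: gaAggAgcccagaaTcaaggcaagaagCCa
Unit 4: gagggAAccTCAaaccaaggcaagaagggG
Unit 5: gagggggcccagaaccaaggcaagaaggga
Unit 6: gagggggcccagaaccaaggcaagaaggga
Unit 7: gagggggcccagaaccaaggcaagaaggga
Unit 8: gagggggcccagaaccaaggcaagaaggga
Unit 9: gagggggcccagaaccaaggcaagaaggga
Unit 10: gagggggcccaAaaccaaggcaagaaggga
Unit 11: gagggggcccagaaccaaggcaagaaggga
Unit 12: gaggggCcccagaaccaGgCcaagaaAgga
Unit 13: gagggggcccagaaccaGggcaagaaAgga

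Per codon, the first part of Rrbp1 had 2.43 and 2.64 times as many footprints as the second in WT cells, while RNA-seq counts were at 0.80 and 0.83 times. The footprint ratio was as follows, with KO1 at 2.06 and 1.52, KO2 at 2.99 and 3.26, and KO3 at 2.53 and 2.51. Both KO1 libraries lay below the other 6 and both KO2 libraries above them. The RNA-seq ratio of the clones was also spread, with KO1 at 0.69 and 0.82, KO2 at 0.86 and 0.94, and KO3 at 0.77 and 0.86. Footprints of the first part were 226 and 229 CPM in WT cells and 166 and 118 in KO1, a log2 ratio of the means of -0.68. Those of the second part were 103 and 95.6 CPM in WT cells and 89.1 and 86.0 in KO1, a log2 ratio of -0.18. In RNA-seq the same log2 ratios of KO1 over WT cells were -0.18 for the first part and -0.06 for the second. These values by part carry no test, and in replicate 2 of KO1 they rest on 139 and 101 footprints. The study tallied reads that it calls uniquely mapped. How reads that match several units were treated is not given in the sources used here. Footprint counts of the identical coding sequences of Srp54a and Srp54b were equal in 8 of 8 Ribo-seq libraries. Footprints with several matches were thus not all left out. Whether this raised the count of the first part of Rrbp1 was not tested, so the level of the first part is uncertain.

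**Figure D5:**
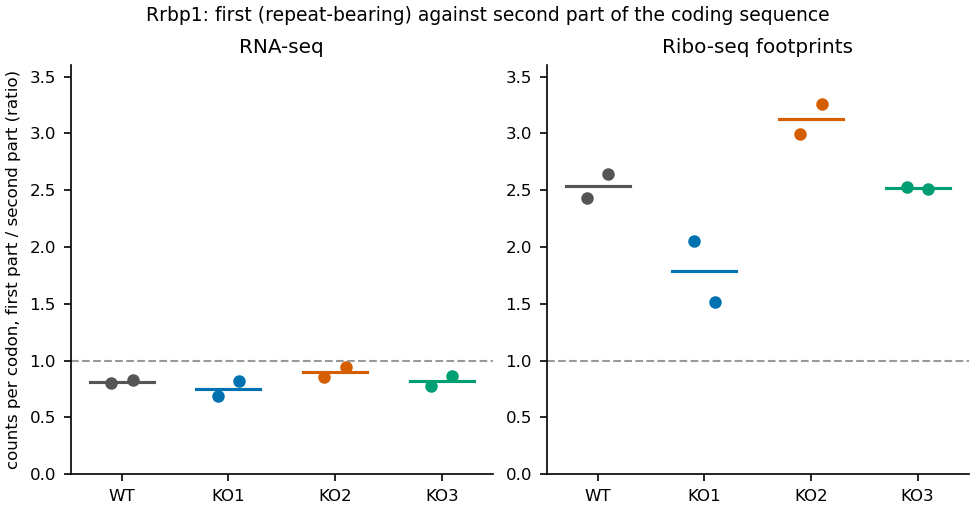
Counts per codon in the first part of the Rrbp1 coding sequence divided by those in the second part (y axis, ratio), for RNA-seq and Ribo-seq, by line (x axis), with a point for each of 2 replicates and a line at their mean. RNA-seq ratios lie between 0.69 and 0.94 and footprint ratios between 1.52 and 3.26, lowest in KO1.

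TE was tested as the interaction of line and assay with edgeR. No member was called in KO1 (0.0942% of 11680 genes), KO2 (0.0173%), KO3 (0.104%), the mean of the clones (0%) or the test that the clones differ (1.03%). At an unadjusted p under 0.05 there were 9 members in KO1 (827 of 11680 genes), 0 in KO2 (495 of 11570) and 3 in KO3 (702 of 11566). There were 2 in the mean of the clones (451 of 11903) and 11 in the test that the clones differ (1223 of 11903). DESeq2 called 0 members in the clones and their mean, and 1, Rpn1, in the test that the clones differ. TE changes of the members ranged from -0.44 to 0.43 in KO1, from -0.17 to 0.28 in KO2 and from -0.28 to 0.45 in KO3, with a median SE of 0.11, 0.12 and 0.11.

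With the lysate as a block, which pairs the RNA-seq and Ribo-seq library of a replicate, 4 members were called in KO1 (83 of 11680 genes). TE of Rrbp1 was lower (-0.36 ± 0.07, adjusted p = 0.00231), and that of Tram1 (0.33 ± 0.09, adjusted p = 0.0421), Rpn1 (0.25 ± 0.07, adjusted p = 0.0477) and Rpn2 (0.24 ± 0.06, adjusted p = 0.0489) was higher. Without the block, edgeR gave -0.34 for Rrbp1 (adjusted p = 0.407) and 0.32, 0.25 and 0.25 for Tram1, Rpn1 and Rpn2 (adjusted p = 0.41 each). With the block, 0 members were called in KO2, KO3 and the mean of the clones. The blocked test that the clones differ called 7 (407 of 11903 genes), namely Rrbp1 (adjusted p = 8.39e-06), Rpn1 (0.00193), Rpn2 and Srp9 (0.00738 each), Stt3a (0.0104), Tram1 (0.0351) and Sec61b (0.0365). The TE of Rrbp1, here as log2 of the CPM ratio, was 0.31 and 0.44 in WT cells, with KO1 at 0.06 and -0.11, KO2 at 0.60 and 0.29, and KO3 at 0.27 and -0.05. KO1 and KO3 lay below WT cells, and KO2 overlapped them. These values count both parts of Rrbp1, and the level of the first part, which holds the repeats, is uncertain. For the first part the log2 ratio of KO1 over WT cells was -0.68 in footprints and -0.18 in RNA-seq. For the second part it was -0.18 and -0.06, and TE by part was not tested. TE changes of Ktn1 were -0.23 ± 0.13, -0.08 ± 0.12 and -0.14 ± 0.12 in KO1, KO2 and KO3, and those of Ckap4 0.13 ± 0.11, 0.02 ± 0.12 and -0.09 ± 0.11.

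Of 64 other genes of ER entry and early maturation, 62 could be tested in RNA. In KO1, 11 were called higher and 16 lower (46.7% of all genes were called), in KO2, 6 and 9 (20.4%), and in KO3, 12 and 10 (45.4%), with medians of -0.02, -0.02 and 0.01. In footprints, 61 could be tested for KO1 and KO2 and 62 for KO3, and 9 were higher and 10 lower for KO1 (26.9%), 6 and 4 for KO2 (11.7%), and 4 and 8 for KO3 (30.6%). Over the mean of the clones, 4 were higher in RNA and 5 lower (18.9%). The largest rises were those of Man1b1, a mannosidase (0.20 ± 0.07, adjusted p = 0.0371), and Tmco1, a protein of the multipass translocon (0.19 ± 0.07, adjusted p = 0.0434). The largest falls were those of Alg12, a mannosyltransferase of the glycan precursor (-0.48 ± 0.14, adjusted p = 0.0133), and Tmem147, which binds the channel (-0.30 ± 0.07, adjusted p = 0.00073). The clones differed in size and, for Man1b1, in sign. In KO1, KO2 and KO3, Man1b1 was at 0.21, -0.03 and 0.41, and Tmco1 at 0.16, 0.26 and 0.15. Alg12 was at -0.93, -0.49 and -0.01, and Tmem147 at -0.55, -0.28 and -0.09. TE was tested for 62 of the other ER entry genes and called for 0 by edgeR in each comparison.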

How the data were processed

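RNA-seq and Ribo-seq libraries of 4 Hepa1-6 lines were used, 2 replicates each. The labels give the molecule as polyA RNA, while the protocol names rRNA depletion and a directional kit. The authors trimmed reads with fastp 0.21.0, removed noncoding RNA reads and aligned to mm10 with STAR 2.7.0a, and deposited raw read counts per GENCODE transcript, by A-site position within the coding sequence without its first and last 5 codons. A read can count for several transcripts of a gene. The transcript with the largest total was kept for each of 22392 gene symbols.

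Here, counts were tested with edgeR 4.0.16 in R 4.3.3 (TMM factors within each assay, filterByExpr, quasi-likelihood test, Benjamini-Hochberg adjustment over all genes, threshold 0.05), each clone against WT, and all lines for the mean of the clones and for differences between them. CPM use the TMM factors. TE was the interaction of line and assay. The scripts were tested on simulated data. Alternatives were DESeq2 1.42.0, its size factors in edgeR, other filters, all transcripts, all lines in 1 fit, libraries thinned to equal depth, blocks, and each replicate left out. By the protocol, both assays of a replicate used 1 lysate. The deviations of their libraries from the line means correlated at r = 0.111 to 0.283 across 4014 genes, in 4 of 4 lines. Replicate differences of separate lines correlated at r = -0.002 to 0.372 in RNA and 0.0969 to 0.200 in footprints. The correlation within lines thus cannot tell a shared lysate from a shared replicate number. No 2 replicates were duplicates (chi-square per gene 1.84 to 6.93).

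Named with values were every member for its WT level, members called for TE, the 3 largest called rises and falls in RNA of each clone, and Rrbp1, Ktn1 and Ckap4. Other members named in the clones were chosen after their values were seen. The members and lists were chosen with earlier results of these data known. Promoter windows are from RefSeq, and Rrbp1 and Srp54 sequences from GENCODE transcripts of GRCm38. Protein sequences were not used here.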

Additional observations from a re-analysis of the deposited data

Results flagged for a closer look

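The clones differed from each other for 31 of 35 members in RNA (74.0% of all genes tested) and 28 of 35 in footprints (59.5%), by edgeR's test that the 3 clones are equal. The values given here are those of the 3 largest called rises and falls in RNA of each clone and of Rrbp1, Ktn1 and Ckap4. In RNA these were called with adjusted p of 4.5e-14 for Stt3b, 2.93e-12 for Ckap4, 1.79e-11 for Sec11c, 5.47e-11 for Tram1, 8.59e-10 for Sec61b, 5.23e-09 for Sec63, 1.2e-08 for Srp54a, 6.38e-08 for Krtcap2, 2.02e-07 for Srp9, 2.12e-06 for Rrbp1, 3.18e-06 for Sec11a, 5.3e-06 for Spcs3, 5.35e-06 for Sec61a1, 4.69e-05 for Ktn1, 8.64e-05 for Srp14 and 0.000112 for Sec62. In footprints those called had adjusted p of 2.74e-10 for Ckap4, 8.67e-10 for Sec11c, 2.31e-09 for Sec61b, 7.06e-09 for Sec61a1, 1.53e-08 for Tram1, 2.85e-08 for Spcs3, 4.49e-08 for Stt3b, 2.59e-07 for Srp54a, 2.81e-07 for Sec11a, 1.58e-06 for Rrbp1, 1.01e-05 for Srp9, 2.01e-05 for Sec63, 4.02e-05 for Krtcap2, 0.00141 for Srp14 and 0.0405 for Ktn1. The footprint calls of Ktn1 and Srp14 were lost by DESeq2, and that of Ktn1 also without KO1 replicate 2 or either KO3 replicate.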

How the results depend on the processing

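The alternatives moved the number of members called more than the directions of single genes. DESeq2 called fewer, with 10 in RNA of KO1, 6 of KO2 and 2 of the mean of the clones, and in footprints 5 of KO1, 2 of KO2, 5 of KO3 and 0 of the mean, and it called 1 in the TE test that the clones differ. At equal depth, footprints gave 6 in KO1 and 2 in the mean, and the TE test that the clones differ 1. That TE test gave 3 with no filter and 2 with all transcripts. Leaving out each replicate in turn gave 9 to 17 members in RNA of KO1, 6 to 13 of KO2, 11 to 14 of KO3, 0 to 9 of the mean and 28 to 32 for differences between clones. In footprints it gave 5 to 11, 5 to 8, 8 to 10, 0 to 3 and 23 to 29, and in TE 0 in each clone and the mean and 0 to 2 for differences between clones. The cause was not tested.

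With the replicate number as a block, 23 members were called in RNA of KO1, 15 of KO2, 17 of KO3 and 9 of the mean of the clones. In footprints these counts were 14, 10, 14 and 5, and each was higher than without the block. Shares over all genes with this block are not given here for RNA and footprints. These rises are thus not a result about the members. TE gave 1 member in KO1 (Rrbp1, -0.35, with 56 of 11680 genes called) and 5 for differences between clones (232 of 11903 genes). With the lysate as a replicate block, TE gave 4 (83 of 11680) and 7 (407 of 11903). For each gene, the log2 difference between the 2 replicates of a line was compared between pairs of lines. These differences correlated at r = -0.002 to 0.372 in RNA and 0.0969 to 0.200 in footprints. Not every pair was over 0.1, so the libraries were not treated as paired by number, which does not show that they are unpaired. With the replicate number as a block, Ktn1 was also called in KO2 (-0.20 in RNA, -0.28 in footprints) and Rrbp1 in RNA of KO1 (-0.11).

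Of the values of named genes under an alternative, 562 kept their direction and side of the threshold, 28 lost their call, 7 gained one and 12 changed sign, none of them a called change. At equal depth these were Ktn1 footprints in KO1 (0.0223) and Ckap4 TE in KO2 (-0.081), and with all transcripts Rrbp1 footprints in KO3 (-0.0088). The others came from leaving out 1 replicate, with ranges of -0.0902 to 0.0619 for Rrbp1 RNA in KO2, -0.248 to 0.105 for Ktn1 footprints in KO1, -0.066 to 0.1732 for Rrbp1 footprints in KO2, -0.0468 to 0.1228 for Ckap4 footprints in KO3, -0.0873 to 0.0862 for Rrbp1 footprints in KO3, -0.0867 to 0.2213 for Rrbp1 TE in KO2 and -0.026 to 0.0341 for Ckap4 TE in KO2.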
